A study of Rattus norvegicus with 8 samples.

Results

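Maternal calorie restriction without leptin was examined in the hypothalamus of weanling rats by setting the offspring of restricted mothers given saline (CR-s) against saline-treated offspring of mothers on normal food (Con-s). The arrays were taken by their titles: CR-s-A and CR-s-B against Con-s-A and Con-s-B, 4 of the 8 arrays of the series, and the comparison covered all 14506 genes that a uniquely named probe set measured, from 29215 probe sets on the array. All animals were 21-day-old female Sprague-Dawley offspring. Con-s offspring came from mothers fed normally through pregnancy and nursing. CR-s offspring came from mothers whose calories were cut by 50% from gestation day 11 to 21 and who stayed restricted after birth. Saline was given from postnatal day 2 to 8. The other 4 arrays carry the same diets with leptin in place of saline (Con-l and CR-l), and the design note writes Con-r for the group read here as Con-l. The naming of the samples leaves it unclear whether mothers or pups received the saline. It is also not stated whether 1 animal or several gave an RNA sample, so the p-values reflect how these samples spread and may not reflect separate litters.

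The hypothalamus sets food intake, growth, stress hormones and body temperature. In its arcuate nucleus, neurons that make neuropeptide Y and agouti-related peptide drive feeding, and neurons that make POMC and CART peptides restrain it. Weaning age in the rat is also a time of rapid myelination, when oligodendrocytes make large amounts of lipid and cholesterol, and a time when glucocorticoids and temperature act strongly on the young brain.

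Median array intensities lay between 111.8 and 114.1. Replicates of a group correlated at 0.9947 to 0.9955 across all 29215 probe sets, which are not independent replicates. The weakest correlation of each array with any other array was 0.9938 to 0.9947, so high values were not limited to replicates. No array correlated less with CR-s replicate A than its own partner, CR-s replicate B, did (0.9947). Over the 14506 genes, the median absolute log2 difference between replicates was 0.08 in Con-s and 0.09 in CR-s. CR-s replicate B stood apart: its log2 interquartile range was 2.92 where the other 7 arrays had 3.01 to 3.08, and on the second principal component it lay at -14.0 where the others lay between -2.88 and 5.37. Some of the leading genes and many of the gene groups are therefore also given without that array. Among peptide genes of the labelled tissue, oxytocin (Oxt), hypocretin (Hcrt) and melanin-concentrating hormone (Pmch) averaged 11.57, 9.57 and 11.37 on the log2 scale in Con-s. Others were dimmer, such as Pomc at 6.51. No other tissue was on the arrays for comparison, so these levels do not test the dissection. With 2 arrays in a group, the number of arrays limits the precision, and the median standard error of a difference was 0.08 on the log2 scale.

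No gene passed limma's test at an adjusted p under 0.05 (0.0% of 14506 genes), and the smallest adjusted p was 0.176. By the unadjusted p, 493 genes were higher in CR-s (3.4%) and 740 were lower (5.1%) at a threshold of 0.05, 8.5% in all. At least 1.5-fold differences were measured for 19 genes that were higher (0.131%) and 31 that were lower (0.214%), and 16 (0.11%) and 30 (0.207%) of them also had no overlap and an unadjusted p under 0.05. The arrays of both groups did not overlap in 2451 genes that were higher in CR-s (16.9%) and in 3060 that were lower (21.1%). The percentages by direction are the background for the counts of each gene group. Over all genes the median log2 difference, CR-s minus Con-s, was -0.0043, with 7009 genes higher (48.3%) and 7497 lower (51.7%). With limma's trend and robust settings, 66 genes passed (0.455%), 10 higher and 56 lower. Without CR-s replicate B no gene passed, and 408 genes were higher and 652 lower at an unadjusted p under 0.05. Since no gene passed the test as planned, the genes below are described by their values. In whole tissue, fewer cells of a type and less RNA per cell cannot be told apart.

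**Figure D1:**
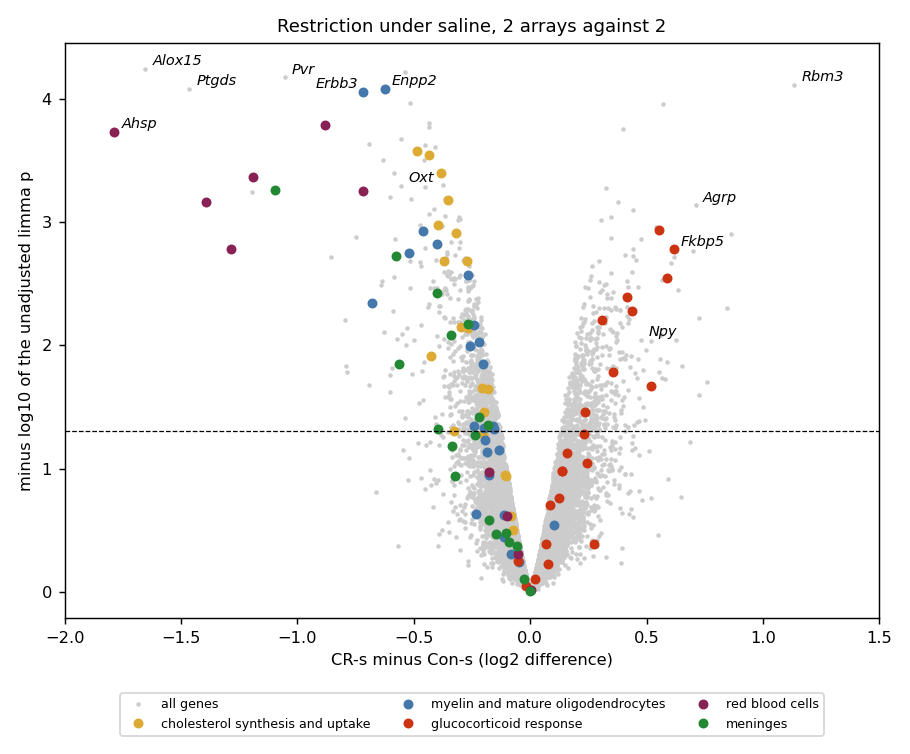
Each point is a gene, with the log2 difference CR-s minus Con-s on the x axis and minus log10 of limma's unadjusted p on the y axis. Coloured points are members of 5 gene lists, and the dashed line marks an unadjusted p of 0.05. The most extreme genes include Alox15, Ptgds and Pvr on the lower side and Rbm3 on the higher side, and none of the 14506 genes reached an adjusted p under 0.05.

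Appetite peptides of the arcuate nucleus were among the genes with clear gaps between the groups. Agrp, whose peptide blocks melanocortin receptors and drives feeding, measured 7.54 and 7.50 in Con-s and 8.17 and 8.29 in CR-s on the log2 scale. Both CR-s arrays lay above both Con-s arrays by at least 0.63. The difference was 0.71 (SE 0.13), 1.64-fold, with an adjusted p of 0.267 in limma, and 0.65 without CR-s replicate B. Npy, the partner peptide of the same neurons, measured 9.50 and 9.27 in Con-s and 9.95 and 9.76 in CR-s. Its groups did not overlap either, with a difference of 0.48 (SE 0.13, adjusted p = 0.412), and 0.57 without CR-s replicate B.

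The appetite-lowering genes of the neighbouring arcuate neurons differed in the opposite direction by smaller amounts. Pomc, the precursor of melanocortin peptides, measured 6.58 and 6.45 in Con-s and 6.26 and 6.34 in CR-s. It was a dim gene here, outside the brightest 60% of genes by mean value. Cartpt, the CART precursor, measured 10.20 and 10.06 in Con-s and 9.90 and 9.88 in CR-s. Neither gene's arrays overlapped between the groups, and the differences were -0.21 (SE 0.07, adjusted p = 0.496) for Pomc and -0.23 (SE 0.08, adjusted p = 0.508) for Cartpt. They were -0.25 and -0.22 without CR-s replicate B. Nucb2, the precursor of the satiety peptide nesfatin-1, was higher in CR-s, at 8.46 and 8.23 where Con-s had 8.01 and 7.95.

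Oxt, the gene of oxytocin, showed the largest gap among the magnocellular genes. It measured 11.70 and 11.45 in Con-s and 10.96 and 11.08 in CR-s, so that both CR-s arrays lay below both Con-s arrays. The difference was -0.55 (SE 0.09, adjusted p = 0.255), and -0.61 without CR-s replicate B. Oxt was also among the 66 genes that passed with the trend and robust settings, as was Agrp. Avp, the gene of vasopressin from the same nuclei, differed by -0.12 (SE 0.12) with no overlap between the arrays, and by -0.03 without CR-s replicate B. Npvf, the precursor of RFamide peptides that restrain gonadotropins, measured 6.93 and 6.76 in Con-s and 6.38 and 6.60 in CR-s.

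**Figure D2:**
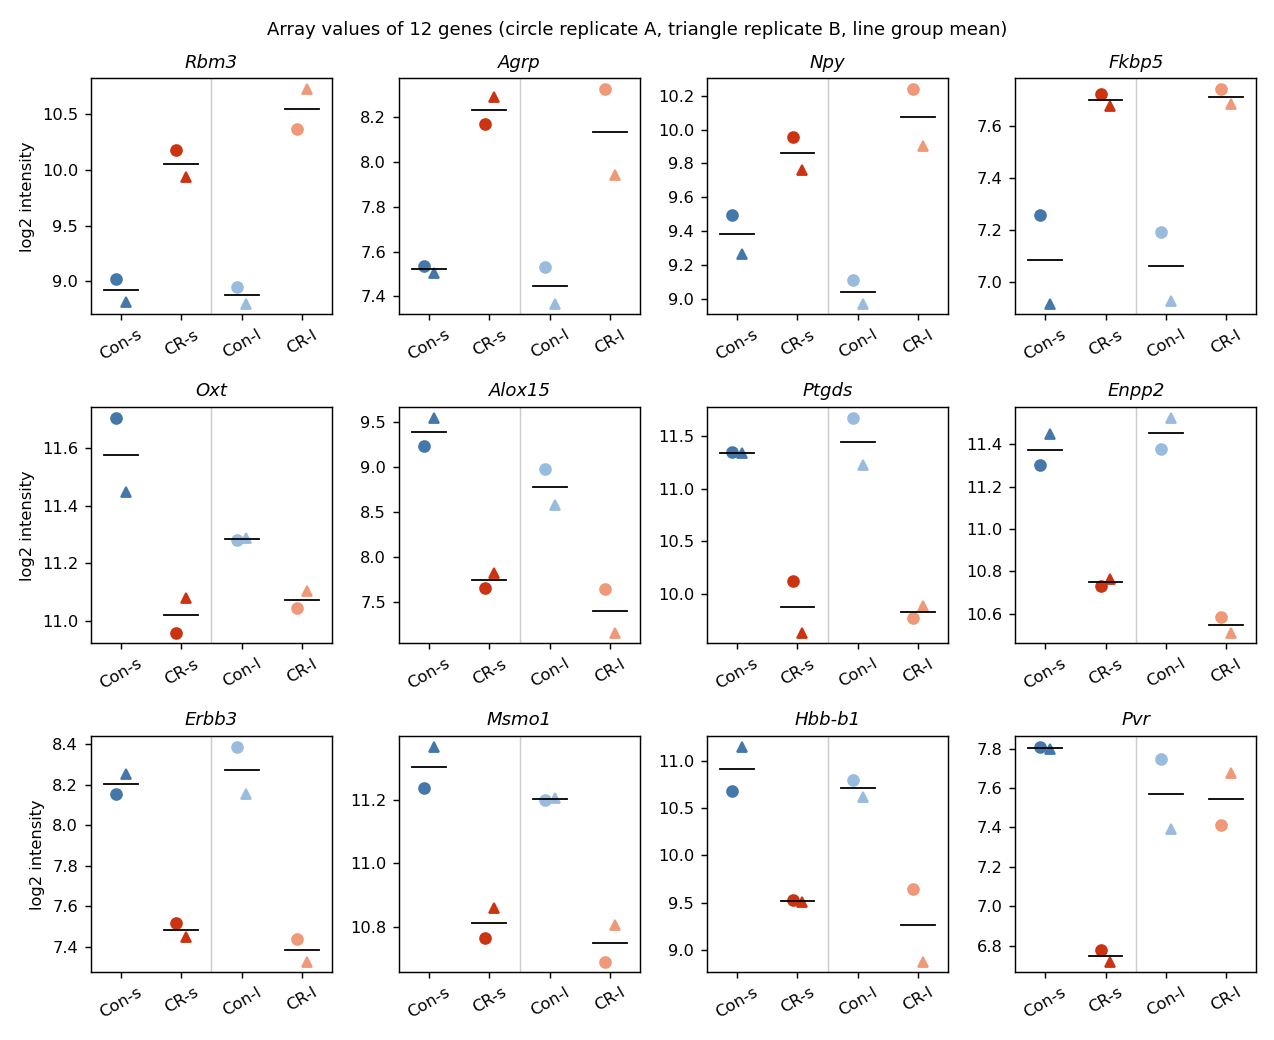
Log2 values of chosen genes on each of the 8 arrays, 1 gene to a panel, with the groups on the x axis, replicate A as a circle, replicate B as a triangle and the group mean as a line. Rbm3 and Agrp lie higher on both CR-s arrays than on both Con-s arrays, and Oxt, Enpp2, Msmo1 and Ptgds lie lower.

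Several other feeding genes did not separate the groups. The arrays of CR-s and Con-s overlapped for Crh, the stress-axis releasing hormone (difference -0.04, SE 0.07), and for Trh, the releasing hormone of the thyroid axis (0.18, SE 0.16). They also overlapped for Hcrt (-0.10, SE 0.13) and Pmch (-0.12, SE 0.10), the peptides of the lateral hypothalamus, and for the growth factor Bdnf (0.02, SE 0.06). The melanocortin receptors Mc3r (0.04, SE 0.14) and Mc4r (0.05, SE 0.19) overlapped as well. All 7 turned sign when 1 saline array was left out, so no direction is given for them.

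As groups, the peptide lists had medians near 0 and few members with small p. Of 13 measured appetite-raising peptides, 9 were higher and 4 lower, with 2 (Agrp and Npy) higher at an unadjusted p under 0.05 and a median log2 difference of 0.02. Of 18 appetite-lowering peptides, 10 were higher and 8 lower, with a median of 0.02. At an unadjusted p under 0.05, 3 of these were lower (Oxt, Pomc and Cartpt) and 1 was higher (Nucb2). Leaving out CR-s replicate B turned these splits to 4 higher and 9 lower and to 8 higher and 10 lower, with medians of -0.01 and -0.0075. Among 21 energy-balance receptors the median was -0.0039, and 0.06 without that array. Receptors higher with no overlap and an unadjusted p under 0.05 were the orexin receptor Hcrtr1 (7.87 and 7.56 in Con-s, 8.04 and 8.07 in CR-s) and the cholecystokinin receptor Cckbr (7.66 and 7.63 in Con-s, 8.11 and 7.96 in CR-s). The neurotensin receptor Ntsr2, which astrocytes carry, was lower by 0.29 on the log2 scale.

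Leptin signalling genes were split between both sides. Stat3, which carries the leptin signal to the nucleus, measured 9.28 and 9.27 in Con-s and 9.05 and 9.12 in CR-s. Socs2, an inhibitor of cytokine signalling, measured 7.39 and 7.62 in Con-s and 7.28 and 7.18 in CR-s. Neither gene's groups overlapped, whereas Socs3, the feedback inhibitor of the leptin receptor, ran from 6.33 to 6.64 in CR-s and from 6.40 to 6.56 in Con-s. Of 15 measured members of this list, 7 were higher and 8 lower, with a median of -0.06 and 2 members lower at an unadjusted p under 0.05. The split was 3 higher and 12 lower, with a median of -0.02, without CR-s replicate B.

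Genes of cholesterol synthesis were lower throughout. All 21 measured members were lower in CR-s, 18 of them with no overlap between arrays (background 21.1%) and 15 at an unadjusted p under 0.05 (background 5.1%). The median log2 difference was -0.27, and the members ranged from -0.49 to -0.08. Without CR-s replicate B all 21 were still lower, with a median of -0.29, and 7 of the 21 passed with limma's trend and robust settings. The median lay between -0.31 and -0.24 over all processing alternatives.

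The promoters of 4 of these genes are printed because they show the CCAAT boxes that many of the list share. The factor NF-Y binds CCAAT boxes and works beside the sterol-sensing SREBP factors at genes of this pathway. Each sequence is 100 bases of the strand on which the gene lies, from RefSeq on the rat build GRCr8, and capitals mark CCAAT or its reverse complement ATTGG. Msmo1 lies on the plus strand (chr16:29746997-29747096), Fdps on the minus strand (chr2:176804850-176804949), Srebf2 on the plus strand (chr7:115543130-115543229) and Nsdhl on the plus strand (chrX:155817247-155817346).
Msmo1: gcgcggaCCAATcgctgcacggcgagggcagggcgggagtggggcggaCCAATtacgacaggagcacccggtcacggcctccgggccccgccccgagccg
Fdps: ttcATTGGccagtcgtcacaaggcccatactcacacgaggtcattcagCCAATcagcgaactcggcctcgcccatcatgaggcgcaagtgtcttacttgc
Srebf2: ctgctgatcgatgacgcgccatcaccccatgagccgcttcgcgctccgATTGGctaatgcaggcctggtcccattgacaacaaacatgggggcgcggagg
Nsdhl: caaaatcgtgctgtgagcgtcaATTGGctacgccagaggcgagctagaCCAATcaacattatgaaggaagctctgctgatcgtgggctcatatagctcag

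RefSeq gave a promoter window, 250 bases before to 50 after the start, for 17 of the 21 genes. CCAAT, searched on both strands, was found in 13 of the 17 (76.5%), against 37.5% of all 33469 windows and 38.2% of the 12540 windows of measured genes. The 9 letters TCACNCCAC, a sterol response element, were found in none of the 17 windows and in 1.12% of all windows. With so few matches, finding none in 17 cannot set these promoters apart. A match is a description of letters in a window and does not show that a factor binds there.

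Among the enzymes, Msmo1, a sterol methyl oxidase, had the largest difference. It measured 11.24 and 11.37 in Con-s and 10.77 and 10.86 in CR-s, a difference of -0.49 (SE 0.07, adjusted p = 0.204). Cyp51, the sterol demethylase, measured 11.42 and 11.53 in Con-s and 10.997 and 11.09 in CR-s. In both genes each CR-s array lay below each Con-s array. Dhcr7, which makes the last step to cholesterol, measured 8.69 and 8.76 in Con-s and 8.25 and 8.41 in CR-s.

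Other steps of the pathway and its regulator showed the same order of arrays. Fdps, which makes farnesyl diphosphate, measured 10.81 on both Con-s arrays and 10.41 and 10.44 in CR-s, a difference of -0.38 (SE 0.06). Fdft1, squalene synthase, differed by -0.32 (SE 0.06), Idi1, the isopentenyl diphosphate isomerase, by -0.37 (SE 0.08), and Nsdhl, a sterol dehydrogenase, by -0.27 (SE 0.06). Srebf2, the transcription factor that drives the pathway, measured 9.89 and 9.82 in Con-s and 9.48 and 9.53 in CR-s. Only 3 members overlapped between the groups, among them Hsd17b7 at 8.38 and 8.49 in Con-s and 8.31 and 8.41 in CR-s.

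Fatty acid synthesis was lower in the same arrays. All 12 measured genes were lower in CR-s, 11 with no overlap and 8 at an unadjusted p under 0.05, with a median of -0.22, and -0.23 without CR-s replicate B. Scd, the stearoyl-CoA desaturase, measured 9.02 and 9.46 in Con-s and 8.56 and 8.42 in CR-s, and its difference of -0.75 (SE 0.15) was the largest of the list. Fads1, a desaturase of polyunsaturated fatty acids, measured 11.40 and 11.42 in Con-s and 10.98 and 10.93 in CR-s. Scd2, the desaturase of the developing brain, measured 13.15 and 13.20 in Con-s and 12.92 and 12.93 in CR-s. The carboxylase Acaca, at -0.01 (SE 0.05), was the member with overlap, and it turned to the higher side under quantile and cyclic loess normalization. Fasn, the fatty acid synthase itself, differed by -0.15 (SE 0.07).

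**Figure D3:**
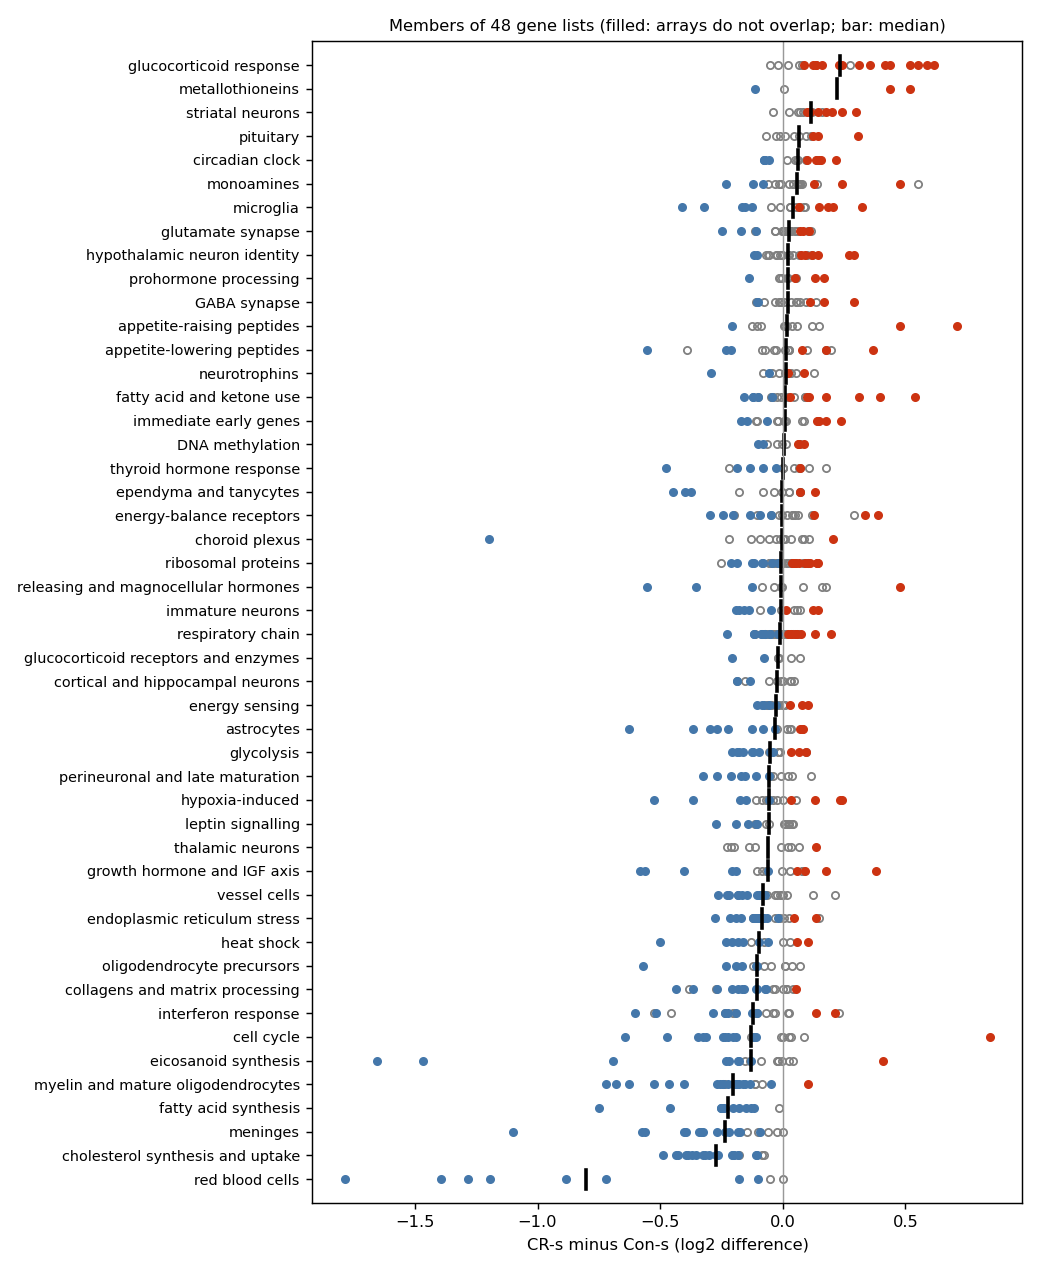
Log2 differences, CR-s minus Con-s, of the measured members of the gene lists. Each point is a gene, filled where the CR-s and Con-s arrays do not overlap (red higher, blue lower in CR-s), and the bar is the list's median. Cholesterol synthesis (median -0.27), fatty acid synthesis (-0.22), myelin (-0.20) and red blood cells (-0.80) lie to the lower side, and glucocorticoid response (0.23) lies to the higher side.

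Myelin genes were lower almost throughout. Of 25 measured genes of mature oligodendrocytes, 24 were lower and 1 was higher, with 20 lower without overlap, 15 lower at an unadjusted p under 0.05 and a median of -0.20. Summed over the list, intensities were 65443.6 and 69799.6 in Con-s and 54713.7 and 59954.1 in CR-s. Without CR-s replicate B the median was -0.27 with the same 24 to 1 split, and 6 members passed with the trend and robust settings. Over all processing alternatives the median lay between -0.28 and -0.17.

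Enpp2 had the smallest p of the list. It encodes a secreted enzyme that makes lysophosphatidic acid and is abundant in oligodendrocytes. It measured 11.30 and 11.45 in Con-s and 10.73 and 10.77 in CR-s, a difference of -0.63 (SE 0.08, adjusted p = 0.176). Erbb3, a neuregulin receptor, measured 8.15 and 8.25 in Con-s and 7.52 and 7.45 in CR-s, a difference of -0.72 (SE 0.09, adjusted p = 0.176). In both genes the gap between the groups exceeded the spread within them. Ermn, a cytoskeletal protein of myelinating cells, measured 10.90 and 10.95 in Con-s and 10.45 and 10.48 in CR-s. Tf, the iron carrier transferrin, measured 10.92 and 11.28 in Con-s and 10.18 and 10.66 in CR-s.

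Structural genes of the myelin sheath were also measured. Mbp, myelin basic protein, measured 12.92 and 12.998 in Con-s and 12.81 and 12.85 in CR-s, a difference of -0.13 (SE 0.06). Mobp differed by -0.15 (SE 0.06), Mag, an adhesion protein of the inner myelin layer, by -0.20 (SE 0.08), and Cnp, the cyclic nucleotide phosphodiesterase, by -0.20 (SE 0.06). Mog, on the outer face of myelin, overlapped between groups, at 12.18 and 12.26 in Con-s and 12.002 and 12.22 in CR-s. The single member that was higher was the small heat shock protein Cryab, at 0.10 (SE 0.09). Klk6, an oligodendrocyte protease that belongs to no list here, measured 9.998 and 10.18 in Con-s and 8.92 and 9.54 in CR-s.

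Genes of oligodendrocyte precursors lay mostly on the lower side. Of 13 measured genes, 4 were higher and 9 lower, 6 lower without overlap and 2 lower at an unadjusted p under 0.05, with a median of -0.10, and -0.12 without CR-s replicate B. The 2 were Olig1, a lineage transcription factor (10.34 and 10.43 in Con-s, 10.19 and 10.25 in CR-s), and Gpr17, a receptor of cells about to myelinate (10.69 and 10.63 in Con-s, 10.43 and 10.50 in CR-s).

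Glucocorticoid-responsive genes were higher as a group. Of 22 measured genes, 20 were higher and 2 lower, 16 higher without overlap (background 16.9%) and 9 higher at an unadjusted p under 0.05 (background 3.4%), with a median of 0.23. Without CR-s replicate B the split was again 20 to 2 and the median 0.21, and over all processing alternatives the median lay between 0.19 and 0.25. Fkbp5, a co-chaperone that restrains the glucocorticoid receptor and is induced by it, measured 7.26 and 6.91 in Con-s and 7.72 and 7.68 in CR-s, a difference of 0.62 (SE 0.13, adjusted p = 0.321). Zbtb16, a zinc finger factor, measured 7.97 and 7.93 in Con-s and 8.49 and 8.51 in CR-s. Both genes had CR-s arrays wholly above Con-s arrays.

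The same order of arrays was measured for other members of the list. Gpd1, glycerol-3-phosphate dehydrogenase, measured 9.18 and 9.52 in Con-s and 9.81 and 10.06 in CR-s. Sgk1, a kinase of ion transport, measured 9.71 and 9.67 in Con-s and 10.06 and 10.16 in CR-s. The metal-binding proteins Mt1 and Mt2A differed by 0.44 (SE 0.11) and 0.52 (SE 0.18), and the brain form Mt3, which is not in this list, by -0.11 (SE 0.07). Pdk4, which turns cells from glucose to fat, differed by 0.31 (SE 0.08), and Tsc22d3, a mediator of glucocorticoid action, by 0.16 (SE 0.08).

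The receptors themselves differed little. Nr3c1, the glucocorticoid receptor, measured 9.10 and 9.20 in Con-s and 9.26 and 9.10 in CR-s, which overlap. Nr3c2, the mineralocorticoid receptor, differed by -0.07 (SE 0.09) with no overlap. Of the 7 measured genes of receptors and hormone-converting enzymes, 2 were higher and 5 lower, with a median of -0.02. This turned to 5 higher and 2 lower, with a median of 0.02, without CR-s replicate B. A glucocorticoid response element of 15 letters was searched on both strands. It was found in none of the 19 promoter windows of the responsive genes and in 0.0568% of all windows. With a match this rare, finding none in 19 cannot set these promoters apart, and no conclusion is drawn from it.

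Rbm3, an RNA-binding protein that is induced by mild cold, had the largest difference of any gene that was higher. It measured 9.03 and 8.82 in Con-s and 10.17 and 9.94 in CR-s, with at least 0.91 between the groups. The difference was 1.13 (SE 0.14), 2.19-fold, with an adjusted p of 0.176 in limma, and 1.25 without CR-s replicate B. Cirbp, the other cold-inducible RNA-binding protein, measured 9.08 and 9.06 in Con-s and 9.41 and 9.37 in CR-s, a difference of 0.32 (SE 0.08, adjusted p = 0.395). Most heat shock genes lay in the opposite direction: 9 of 13 were lower, 4 of them at an unadjusted p under 0.05, with a median of -0.10, and -0.08 without CR-s replicate B. Hsph1, a large chaperone, measured 9.41 and 9.67 in Con-s and 9.12 and 8.97 in CR-s.

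Genes of red blood cells had the median difference of largest size among the 49 lists. Of 10 measured genes, 9 were lower, 8 without overlap and 6 at an unadjusted p under 0.05, with a median of -0.80, and -0.90 without CR-s replicate B. Ahsp, the chaperone of alpha globin, measured 6.27 and 7.05 in Con-s and 5.09 and 4.66 in CR-s, a difference of -1.79 (SE 0.26, adjusted p = 0.193), 3.45-fold. Alas2, the first enzyme of haem synthesis in red cells, measured 8.29 and 8.65 in Con-s and 7.23 and 7.32 in CR-s. Slc4a1, the anion exchanger of the red cell membrane, measured 7.09 and 7.39 in Con-s and 6.44 and 6.60 in CR-s. No array of one group reached the other in these genes.

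The globins showed the same order. Hbb-b1, Hbb and Hba-a3 differed by -1.40 (SE 0.25), -1.28 (SE 0.26) and -0.88 (SE 0.12), but globin genes are near-identical copies whose probes can cross-hybridise, so the single genes are uncertain. Summed intensities of the list were 5488.9 and 7147.6 in Con-s and 3110.3 and 3116.7 in CR-s. Bpgm and Fech, which other cells also use, differed by -0.05 (SE 0.07) and 0.00 (SE 0.06). Of the red cell list 3 members passed with the trend and robust settings.

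Genes of the meninges, the membranes around the brain, were lower with them. Of 19 measured genes, 18 were lower, 14 without overlap and 9 at an unadjusted p under 0.05, with a median of -0.24, and -0.29 without CR-s replicate B. Col3a1, at 0.00 (SE 0.07), was the remaining member, and it turned to the lower side under cyclic loess normalization. Ogn, a small proteoglycan, measured 9.67 and 9.45 in Con-s and 8.50 and 8.42 in CR-s, a difference of -1.10 (SE 0.19, adjusted p = 0.255). Slc6a13, a GABA and taurine transporter of the meninges, measured 8.33 and 8.22 in Con-s and 7.69 and 7.71 in CR-s. Igf2 measured 9.33 and 9.25 in Con-s and 8.73 and 8.72 in CR-s, and its binding protein Igfbp2 measured 6.96 and 7.04 in Con-s and 6.50 and 6.69 in CR-s.

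Summed intensities of the meningeal list were 5217.9 and 4969.5 in Con-s and 3834.2 and 3913.3 in CR-s. Red blood cell and meningeal genes thus differed in the same arrays as the myelin, lipid and eicosanoid genes, and their part in those results was not tested. Of 22 measured vessel genes, 18 were lower, 12 without overlap and 6 at an unadjusted p under 0.05, with a median of -0.08, and -0.10 without CR-s replicate B. Rgs5, a pericyte gene, measured 11.02 and 10.996 in Con-s and 10.68 and 10.81 in CR-s.

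Markers of regions and tissues next to the hypothalamus were examined in the same way. Of 14 measured choroid plexus genes, 7 were higher and 7 lower, and the defining marker Ttr overlapped, at 6.92 and 6.48 in Con-s and 6.74 and 6.22 in CR-s. Their summed intensity was 917.5 to 933.7 in Con-s and 858.8 to 861.4 in CR-s. Kcnj13, an ion channel on that list, was the one member with an unadjusted p under 0.05, at 6.78 and 6.56 in Con-s and 5.64 and 5.31 in CR-s. The 11 pituitary genes had a median of 0.07, 0.04 without CR-s replicate B, and summed to 568.8 to 589.3 in Con-s and 593.3 to 631.8 in CR-s.

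Striatal neuron genes were slightly higher, with 13 of 14 above Con-s, 7 without overlap, none at an unadjusted p under 0.05 and a median of 0.11, and 0.16 without CR-s replicate B. Their summed intensity was 4488.9 and 4489.1 in Con-s and 5101.8 and 4670.3 in CR-s, so replicate A of CR-s was the highest of the 4. Ppp1r1b, the dopamine-regulated phosphoprotein of striatal neurons, measured 7.81 and 7.78 in Con-s and 8.34 and 7.85 in CR-s. Summed intensities of the 10 thalamic genes were 8359.3 to 10275.0 in Con-s and 8609.4 to 9759.2 in CR-s, and those of the 11 cortical and hippocampal genes 4789.5 to 5255.5 and 4665.5 to 5070.8, so both overlapped. For the 22 genes of hypothalamic neuron identity the sums were 4246.8 to 4300.8 in Con-s and 4383.8 to 4524.7 in CR-s, with a median difference of 0.02, and -0.02 without CR-s replicate B. Intensities on these arrays do not fall to 0, so the sums do not show that each member was detected. The part of neighbouring tissue in the results was not tested.

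**Figure D4:**
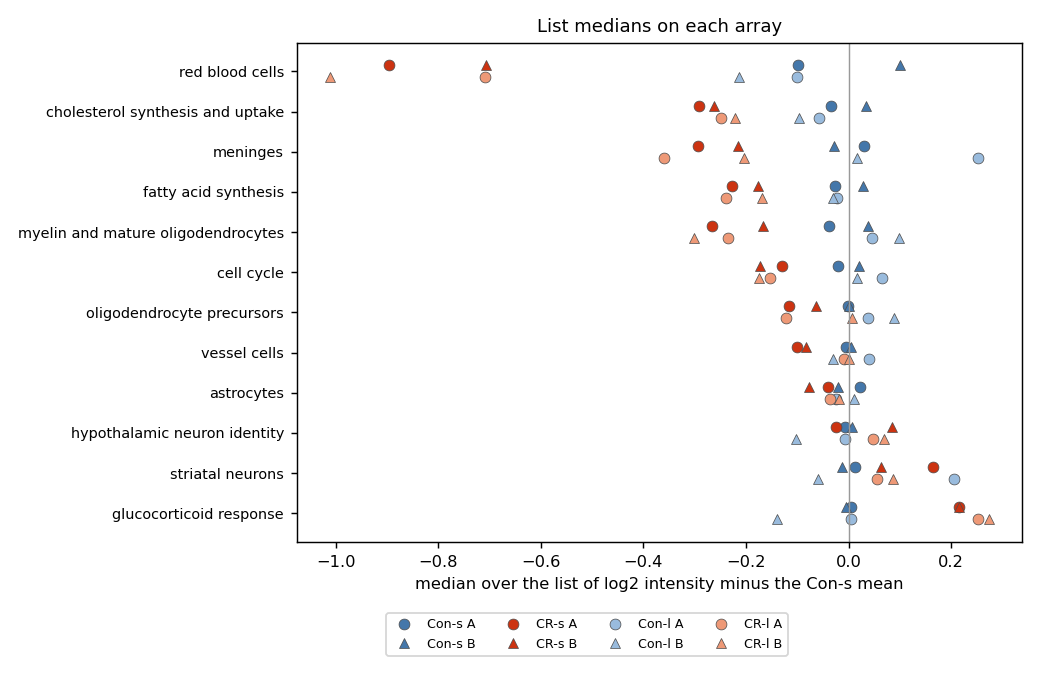
Medians of 12 gene lists on each of the 8 arrays (circles replicate A, triangles replicate B), as the log2 difference from the Con-s mean of each gene. The medians of myelin, cholesterol synthesis, red blood cell and meningeal genes lie below 0 on both CR-s arrays, and that of glucocorticoid-responsive genes lies above 0 on both.

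Eicosanoid synthesis held 2 of the most extreme genes of the comparison. Alox15, a lipoxygenase of arachidonic acid, measured 9.24 and 9.55 in Con-s and 7.65 and 7.82 in CR-s, a difference of -1.65 (SE 0.20, adjusted p = 0.176), 3.15-fold. Ptgds, the prostaglandin D synthase of meninges and oligodendrocytes, measured 11.34 on both Con-s arrays and 10.12 and 9.63 in CR-s, a difference of -1.47 (SE 0.19, adjusted p = 0.176), 2.76-fold. Without CR-s replicate B these differences were -1.74 and -1.22. Ephx2, a hydrolase of lipid epoxides, measured 6.24 and 6.71 in Con-s and 6.09 and 5.48 in CR-s, a difference of -0.69 (SE 0.24), and -0.39 without CR-s replicate B. Alox5, the lipoxygenase of leukotriene synthesis, was higher, at 6.63 and 6.59 in CR-s where Con-s had 6.44 and 5.97. Of the 18 measured genes of the list, 15 were lower and 3 higher, with a median of -0.13. Without that array 14 were lower and 4 higher, with a median of -0.07.

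Genes of dividing cells were mostly lower. Of 21 measured, 16 were lower, 12 without overlap and 9 at an unadjusted p under 0.05, with a median of -0.13 both with and without CR-s replicate B. Top2a, a topoisomerase of proliferating cells, measured 6.34 and 6.57 in Con-s and 5.65 and 5.98 in CR-s. Rrm2, which makes deoxynucleotides, measured 6.42 and 6.49 in Con-s and 5.94 and 6.03 in CR-s. The mitotic kinase Aurkb ran the other way, at 7.11 and 6.86 in Con-s and 8.20 and 7.46 in CR-s, with the replicates of CR-s far apart. Its difference was 0.85 (SE 0.21) with both CR-s arrays and 1.21 without replicate B. Pttg1, securin, which belongs to no list here, differed by -0.69 (SE 0.10, adjusted p = 0.198).

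Genes that process collagen were among those with clear gaps. Serpinh1, the collagen chaperone, measured 9.12 and 9.09 in Con-s and 8.68 and 8.65 in CR-s, a difference of -0.43 (SE 0.06, adjusted p = 0.193). P4ha1, a prolyl hydroxylase, measured 8.38 and 8.43 in Con-s and 8.05 and 8.03 in CR-s. These 2 genes passed with the trend and robust settings, and of the 20 measured genes of the list 15 were lower, with a median of -0.11, and -0.10 without CR-s replicate B. Genes of the endoplasmic reticulum stress response, which hold chaperones and regulators, were also mostly lower: 18 of 23 measured, 14 without overlap and 4 at an unadjusted p under 0.05, with a median of -0.09, and -0.07 without that array. Pdia4, a disulfide isomerase, differed by -0.28 (SE 0.07), Hsp90b1 by -0.21 (SE 0.07) and Calr, calreticulin, by -0.19 (SE 0.06).

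Astrocyte genes split. Of 15 measured, 9 were lower and 6 higher, with a median of -0.03, and -0.04 without CR-s replicate B. On the lower side, 8 did not overlap (background 21.1%) and 5 had an unadjusted p under 0.05 (background 5.1%). Gfap, the intermediate filament of astrocytes, measured 9.79 and 9.67 in Con-s and 9.30 and 8.90 in CR-s, a difference of -0.63 (SE 0.17), and -0.43 without CR-s replicate B. Aqp4, the water channel of their endfeet, measured 11.74 and 11.78 in Con-s and 11.53 and 11.26 in CR-s, a difference of -0.37 (SE 0.12), and -0.23 without that array. S100b, a calcium-binding protein, measured 10.76 and 10.90 in Con-s and 10.67 and 10.55 in CR-s. On the higher side, 3 members did not overlap (background 16.9%), none of them at an unadjusted p under 0.05. They were the glutamate transporter Slc1a2 at 0.08 (SE 0.06), the connexin Gjb6 at 0.08 (SE 0.07) and the growth factor receptor Fgfr3 at 0.07 (SE 0.08). Summed intensities of the list were 32127.9 to 32479.9 in Con-s and 29913.5 to 31484.6 in CR-s. Of 13 measured genes of the perineuronal matrix and of late neuronal maturation, 10 were lower, with a median of -0.05, and -0.11 without CR-s replicate B. They include the matrix proteoglycans Ncan at -0.33 (SE 0.11) and Bcan at -0.21 (SE 0.07).

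Fat and ketone use had a median near that of all genes, 0.01, with 12 of 23 genes higher. Without overlap, 7 were higher (background 16.9%) and 5 lower (background 21.1%). Leaving out CR-s replicate B gave 15 higher and a median of 0.05. At an unadjusted p under 0.05, 4 members were higher (background 3.4%) and 1 was lower (background 5.1%). Pnpla2, the lipase that starts the breakdown of stored fat, measured 8.62 and 8.61 in Con-s and 9.03 and 8.99 in CR-s, a difference of 0.40 (SE 0.06, adjusted p = 0.193). Acat1, a mitochondrial thiolase of ketone use, measured 8.82 and 8.67 in Con-s and 9.23 and 9.34 in CR-s. Pdk4, named above, differed by 0.31, Ppargc1a, a coactivator of mitochondrial genes, by 0.18 (SE 0.07), and Acadvl, a dehydrogenase of long fatty acids, by -0.16 (SE 0.06). Glycolysis lay slightly to the lower side, with 13 of 17 genes lower, 4 at an unadjusted p under 0.05, and a median of -0.05.

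The insulin-like growth factor axis was mixed. Igfbp3 was higher, at 6.96 and 6.87 in CR-s where Con-s had 6.51 and 6.56, and Igfbp5 was lower, at 8.88 and 8.56 where Con-s had 9.19 and 9.41. Igf1r, the receptor, measured 8.61 and 8.69 in Con-s and 8.83 and 8.82 in CR-s. None of these 3 genes overlapped between groups. Of 17 measured genes 7 were higher and 10 lower, and 9 were higher and 8 lower without CR-s replicate B. Of 15 clock genes, 11 were higher, with a median of 0.06 that ran from -0.01 to 0.13 over the processing alternatives, the highest without CR-s replicate B. The period gene Per2 differed by 0.22 (SE 0.08), and the cryptochromes Cry1 and Cry2 by 0.15 (SE 0.07) and 0.15 (SE 0.06). Without overlap, 5 clock genes were higher (background 16.9%) and 4 lower (background 21.1%). The 4 lower ones were Bmal1, Clock, Nr1d2 and Tef, by 0.05 to 0.08 on the log2 scale, none at an unadjusted p under 0.05. The E-box CACGTG was found in 3 of the 14 clock promoter windows (21.4%). It was found in 6.42% of all windows and in 7.77% of the windows of measured genes. The 3 were those of Bhlhe40 (difference 0.10), Bhlhe41 (0.06) and Tef (-0.05), not of Per2, Cry1 or Cry2.

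Large housekeeping lists set the scale for the rest. Of 45 ribosomal protein genes, 21 were higher and 24 lower, with a median of -0.0073 and 1 at an unadjusted p under 0.05. Of 39 respiratory chain genes, 17 were higher and 22 lower, with a median of -0.01. Glutamate and GABA synapse genes had medians of 0.02 and 0.02 (0.07 and 0.04 without CR-s replicate B), with 1 of 22 and none of 18 at an unadjusted p under 0.05.

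The rule of size and p also named genes outside these lists. Pvr, a nectin-like adhesion receptor, measured 7.81 and 7.80 in Con-s and 6.78 and 6.72 in CR-s, a difference of -1.05 (SE 0.13, adjusted p = 0.176), 2.08-fold. Capn6, a calpain-family protein, differed by -0.60 (SE 0.10). F2rl2, a protease-activated receptor, measured 5.91 and 5.65 in Con-s and 6.39 and 6.56 in CR-s, and Gsta1, a glutathione transferase, measured 8.84 and 8.75 in Con-s and 9.60 and 9.26 in CR-s. Akr1c19, an aldo-keto reductase, rested on 1 array: it measured 5.23 and 5.13 in Con-s and 5.50 and 6.38 in CR-s, and its difference of 0.76 became 0.32 without CR-s replicate B.

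Further genes named by that rule are less studied in brain or are chemoreceptor genes. Ly6i (0.86, SE 0.17), Tectb (0.62, SE 0.13), Adad1 (0.60, SE 0.13), Hfm1 (0.62, SE 0.18) and the chemoreceptor genes Olr951 (0.72, SE 0.19), Or2f2 (0.65, SE 0.20) and Vom2r58 (0.59, SE 0.18) were higher in CR-s, and Kng2l1 was lower (-0.63, SE 0.10). None of these 8 genes passed with the trend and robust settings. Most were among the dimmest genes by mean value. Ranked from the dimmest, Vom2r58 lay at 2.0% of all genes, Or2f2 at 3.6%, Kng2l1 at 4.2% and Ly6i at 5.6%. Adad1 lay at 7.3%, Olr951 at 10.7%, Tectb at 14.9% and Hfm1 at 41.4%. Under leptin the diet difference was -0.005 for Tectb, -0.02 for Vom2r58, -0.17 for Adad1 and 0.04 for Kng2l1. It was 0.29 to 0.56 for Or2f2, Ly6i, Olr951 and Hfm1.

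The leptin-treated arrays hold the same diet contrast in 4 other samples, CR-l against Con-l, which share no array with CR-s or Con-s. In that contrast 3 genes passed (0.0207%): Rbm3 and, on the lower side, Serpinh1 and Enpp2, each at an adjusted p of 0.0339. No gene passed with the replicate block, with all probe sets tested together, or without any 1 of 6 arrays (both Con-s, both CR-s, Con-l replicate A and CR-l replicate B). At an unadjusted p under 0.05, 1004 were higher (6.92%) and 1055 lower (7.27%). Their differences under leptin were 1.67, -0.81 and -0.90 on the log2 scale, beside 1.13, -0.43 and -0.63 under saline. Of the 493 genes that were higher under saline at an unadjusted p under 0.05, 335 were also higher under leptin (68.0%), and of the 740 that were lower, 627 were also lower (84.7%). Over all 14506 genes the direction was the same in 60.5%. Among genes that differed at least 1.5-fold under saline, 14 of 19 (higher) and 29 of 31 (lower) had the same direction under leptin. An unadjusted p under 0.05 in both contrasts was found with the same direction for 484 genes (3.34%) and with opposite directions for 27 (0.186%). Both contrasts use 1 estimate of each gene's spread from all 8 arrays, so their p-values are not independent. A gene with a small spread can have a small p in both.

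Of the 49 list medians, 37 lay on the same side in both contrasts, 11 lay on opposite sides and 1 was at 0 under saline. Medians under leptin were -0.31 for myelin, -0.14 for cholesterol synthesis, -0.17 for fatty acid synthesis, 0.31 for glucocorticoid response, -0.71 for red blood cells and -0.36 for meninges. Npy differed by 1.03 under leptin and 0.48 under saline, and Agrp by 0.68 and 0.71. Fdps differed by -0.11 under leptin and -0.38 under saline, and Oxt by -0.21 and -0.55.

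No gene passed the test of the difference itself, the diet effect under saline minus that under leptin (0.0%, smallest adjusted p = 0.278), and 747 genes had an unadjusted p under 0.05 (5.15%), 396 with a higher value under saline (2.73%) and 351 with a lower one (2.42%). The genes just named are therefore not shown to differ between saline and leptin: the difference was -0.55 (SE 0.19) for Npy and -0.34 (SE 0.13) for Oxt, each at an adjusted p of 0.898. Pvr had one of the larger values, -1.05 under saline and -0.03 under leptin, a difference of -1.03 (SE 0.18, adjusted p = 0.898). Con-l measured 7.75 and 7.39 for this gene and CR-l 7.41 and 7.67, so that the leptin-treated groups overlapped. Retsat, a retinol saturase, was 0.31 higher under saline and 0.57 lower under leptin on the log2 scale, a difference of 0.89 (SE 0.17, adjusted p = 0.898), and was named after its values were seen.

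**Figure D5:**
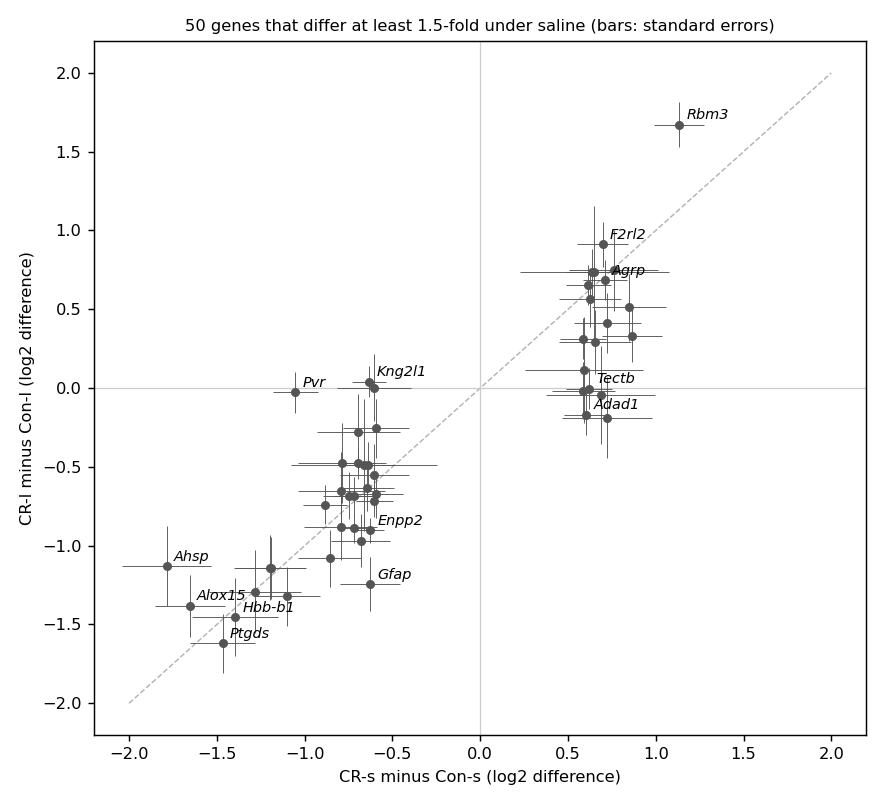
Each point is 1 of the 50 genes that differed at least 1.5-fold under saline, with the log2 difference CR-s minus Con-s on the x axis and CR-l minus Con-l on the y axis, taken from different arrays. Bars are standard errors and the dashed line marks equal values. Rbm3 lies at 1.13 and 1.67, Ptgds at -1.47 and -1.62, and Pvr at -1.05 and -0.03.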

How the data were processed

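Total RNA was hybridised to Affymetrix Rat Gene 1.0 arrays, 1 sample per array. Per the submitters' processing notes, the authors ran RMA with Affymetrix Expression Console (version not given in the sources used here). Deposited values are linear intensities per probe set, judged by their range, and were log2-transformed here without further normalization. Of 29215 probe sets, 15633 are in the platform annotation, 15310 with 1 gene symbol and 323 with several, which were left out. Symbols came from the Entrez number for 15279, an accession for 6, and the annotation alone for 25. For 527 genes with several probe sets, the one with the highest mean was kept, giving 14506 genes. No filter on dim genes was applied. Genes such as Lepr, without a uniquely named probe set, were not analysed here.

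One limma model (limma 3.58.1 under R 4.3.3, default lmFit and eBayes) with 4 group means over 8 arrays had 4 residual and 3.21 prior degrees of freedom. Tests were two-sided with Benjamini-Hochberg adjustment over all 14506 genes. The script was tested on simulated data. The smallest two-sided exact p for 2 arrays against 2 is 0.333, so no exact test was used. The sample titles do not say what arrays of the same replicate letter share.

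Genes named were the energy-balance genes, the 15 rises and 15 falls with the smallest p among genes differing at least 1.5-fold, and up to 5 members, with the first 3, of each list. Others were chosen after their values were seen. The members and lists were chosen with earlier results of these data known, and some genes sit in several lists. The alternatives were trend and robust settings, saline arrays alone, a replicate block, a filter on dim genes, all probe sets, quantile and cyclic loess normalization, the mean over probe sets, an offset of 16, and each array left out. Motifs were counted in RefSeq promoter windows (GRCr8), whose coordinates are those of that build.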

Additional observations from a re-analysis of the deposited data

How the results depend on the processing

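Among 17 alternatives, 166 of 179 genes followed kept the direction of CR-s minus Con-s wherever they were tested (38 dim genes have no value in the filtered setting), as did 28 of 49 list medians. Several alternatives cannot turn a gene's direction. Trend and robust settings, saline arrays alone, the replicate block, the dim filter and all probe sets leave its difference unchanged. So does leaving out a leptin-treated array. The mean over probe sets changes only genes with several, so the count of genes overstates how far directions were tested. No gene passed in that comparison except 66 with limma's trend and robust settings and 16 among the brightest 60% of genes; without single replicates the count was 0 to 0. For CR-l minus Con-l, 3 genes passed, 469 with trend and robust settings, 249 among the brightest 60%, 143 with the offset of 16, 24 after cyclic loess, 10 after quantile normalization, 0 with all probe sets and 0 with the replicate block, and 0 to 3 without single replicates. For the difference between both diet effects it was 0 to 1, the 1 without Con-l replicate B. The sample titles do not say what arrays of the same replicate letter share, and this was not tested. A-minus-B differences correlated at 0.07 between Con-s and CR-s. Over all pairs of groups the correlation ran from -0.06 (Con-s and CR-l) to 0.11 (CR-s and Con-l). With the replicate block, 0 genes passed in CR-s minus Con-s, and 1305 had an unadjusted p under 0.05, where 1233 had one without it. Normalization turned Bdnf (quantile, -0.0013), Socs3 (cyclic loess, -0.0047), Acaca (quantile 0.0091, cyclic loess 0.0109) and Col3a1 (cyclic loess, -0.0020). Without single replicates the range was -0.111 to 0.0366 for Crh, -0.063 to 0.414 for Trh, -0.282 to 0.0762 for Hcrt, -0.281 to 0.0324 for Pmch, -0.0097 to 0.0497 for Bdnf, -0.0668 to 0.145 for Mc3r, -0.176 to 0.28 for Mc4r, -0.148 to 0.158 for Socs3, -0.0463 to 0.111 for Nr3c1, -0.0444 to 0.0497 for Fech, -0.0583 to 0.0598 for Col3a1 and -0.475 to 0.0398 for Ttr. The causes were not tested.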

Other observations

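Interferon-responsive genes lay mostly to the lower side in CR-s, with 19 of 24 measured genes lower, 8 without overlap, 4 lower at an unadjusted p under 0.05 and a median of -0.12. Ifitm3, a membrane protein that restricts viruses, measured 8.25 and 8.11 in Con-s and 7.63 and 7.69 in CR-s. Rsad2, an antiviral enzyme, measured 5.99 and 6.51 in Con-s and 5.79 and 5.51 in CR-s. Ifi27 lay low on 1 array alone, at 8.30 and 8.17 in Con-s and 7.21 and 8.20 in CR-s. Microglial genes were spread over both sides, 11 higher and 7 lower of 18 measured. Ctss, a lysosomal protease, measured 10.94 and 10.96 in Con-s and 11.28 and 11.27 in CR-s, a difference of 0.32 (SE 0.06, limma's adjusted p = 0.255), whereas Lyz2, lysozyme, measured 8.41 and 8.40 in Con-s and 8.07 and 7.92 in CR-s. Cd74, the invariant chain of antigen presentation, measured 7.35 and 7.92 in Con-s and 7.001 and 6.70 in CR-s.

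Dopamine genes differed between the replicates of each group. Slc6a3, the dopamine transporter, measured 9.38 and 10.47 in Con-s, 10.36 and 10.58 in CR-s, 9.11 and 10.39 in Con-l and 9.53 and 10.72 in CR-l, so that replicate B was the higher in all 4 groups. Th, the rate-limiting enzyme of dopamine synthesis, had the same order, with 10.43 and 10.90 in Con-s and 11.02 and 11.27 in CR-s. Thrsp, a thyroid hormone-responsive gene of lipid synthesis, measured 6.64 and 7.15 in Con-s and 6.22 and 6.61 in CR-s. Lhx6 and Lhx8, homeobox genes of forebrain interneurons and cholinergic neurons, were higher by 0.29 (SE 0.11) and 0.27 (SE 0.10) with no overlap between CR-s and Con-s.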
